A study of Mus musculus with 12 samples.

Results

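A set of 10 genes of the integrated stress response and of the response to axon injury was followed in mouse retina: Atf3, Atf4, Atf5, Ddit3, Trib3, Chac1, Asns, Sesn2, Ecel1 and Sox11. They were taken from a fixed list and found by Entrez ID, and all 10 were among the 27179 gene IDs counted. All 10 passed the filter on low counts that left 16475 genes for testing. Whole retinas came from mice with a glial knockout of ABCA1, a transporter that exports cholesterol and phospholipids from cells (KO), and from control mice. The 4 groups were KO at 12 months, control at 12 months, KO at 3 months and control at 3 months, with 3 libraries each. The genotype label names glia and the extraction protocol calls the animals Astro-KO. The driver of the deletion, the strain and the animals per library were not stated in the labels. Since the labels do not say whether libraries came from separate animals, p-values measure the spread between these libraries, which may be technical.

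The integrated stress response is a pathway by which kinases that sense unfolded protein, amino acid shortage, viral RNA or haem shortage phosphorylate the translation factor eIF2. Most translation then falls, while the transcription factors ATF4 and ATF5 are translated preferentially and switch on genes for amino acid supply, redox balance and, if stress persists, cell death. In mouse retina this programme and the axon injury factors Atf3, Sox11 and Ecel1 are known to be induced in ganglion cells after damage to the optic nerve, downstream of the kinase DLK. ATF4 is controlled mainly at translation, so its mRNA level alone does not report its activity.

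The promoters of 3 of these genes are shown because their RNAs behaved differently in the retina: Atf3 rose with age in both genotypes, Trib3 rose with age in control retina and did not pass in KO retina, and Chac1 was low in all groups. Each window runs from 250 bases before to 50 bases after the RefSeq start site (GRCm38.p6), 5′ to 3′ on the strand of the gene. Capitals mark the core of the C/EBP-ATF element, to which ATF4 and CHOP bind (TGATGCAA, or TTGCATCA on the other strand). The windows are Atf3 at chr1:191183284-191183583 on the minus strand, Chac1 at chr2:119350992-119351291 on the plus strand and Trib3 at chr2:152344011-152344310 on the minus strand.
Atf3: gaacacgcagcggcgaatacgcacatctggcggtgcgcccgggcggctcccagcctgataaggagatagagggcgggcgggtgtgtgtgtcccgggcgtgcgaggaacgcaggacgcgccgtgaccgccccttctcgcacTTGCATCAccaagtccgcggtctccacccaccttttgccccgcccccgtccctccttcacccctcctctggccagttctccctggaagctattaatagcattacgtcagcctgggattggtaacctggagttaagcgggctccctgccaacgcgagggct
Chac1: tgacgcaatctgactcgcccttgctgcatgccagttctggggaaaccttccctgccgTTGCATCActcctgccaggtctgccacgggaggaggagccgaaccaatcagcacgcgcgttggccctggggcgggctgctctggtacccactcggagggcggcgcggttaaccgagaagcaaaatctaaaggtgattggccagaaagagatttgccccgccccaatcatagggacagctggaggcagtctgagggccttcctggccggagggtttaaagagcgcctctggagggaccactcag
Trib3: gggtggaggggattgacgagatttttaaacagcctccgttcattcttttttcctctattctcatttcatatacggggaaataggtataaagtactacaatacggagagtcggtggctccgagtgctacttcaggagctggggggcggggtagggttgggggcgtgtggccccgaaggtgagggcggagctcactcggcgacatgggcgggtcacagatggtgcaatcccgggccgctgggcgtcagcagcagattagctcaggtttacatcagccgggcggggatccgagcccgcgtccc

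Windows were found for all 10 genes, 11 in all because Atf5 has 2. The C/EBP-ATF core occurred once in the Atf3 window, with its first base at position -110 from the start site, and once in the Chac1 window, with its first base at -193. In both the letters lay in the reverse orientation. Among all 27025 genes with a window, 1.03% held this core. The cAMP and ATF element TGACGTCA, which reads the same on both strands and is found in 2.03% of genes, was in none of the 11 windows. The AP-1 element TGACTCA, or TGAGTCA on the other strand, is found in 5.95% of genes and occurred once, in the Ddit3 window, with its first base at -242. None of the 3 motifs overlapped another. Only these exact letters were sought, so a variant of an element that differs by a base was not counted. These matches describe letters in short windows and no binding was measured.

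The 12 libraries held 29027099 to 30438026 counts. Rod markers were abundant in every library (6 genes, summed level 40250 to 48238 CPM, counts relative to library size scaled by TMM), as were retinal ganglion cell markers (23 genes, 1447 to 1564 CPM). Replicate 2 of 3-month control was the richest in lens genes, which took 0.381% of its counts against at most 0.0150% in the rest. It stood apart from its 2 replicates, by 43.1 and 41.9 times the counting variance. The part of lens genes in this distance was not tested. KO replicate 1 at 12 months also stood apart, by 21.6 and 24.9 times. The targeted gene Abca1 was not lower in KO retina, at 36.3 ± 7.91 CPM in KO and 30.8 ± 2.66 CPM in control at 12 months (SD, n = 3 each; edgeR adjusted p = 0.65) and at 26.3 ± 1.78 CPM in KO and 22.7 ± 3.34 CPM in control at 3 months (SD, n = 3 each; edgeR adjusted p = 0.70). Abca1 RNA of cells outside the deletion is counted too.

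Corrected for exon length, the order of the genes was steep. Atf4 averaged 81.1 RPKM over the groups and Ddit3 38.8 RPKM. Atf5 (10.8 RPKM), Sesn2 (8.05 RPKM), Asns (7.88 RPKM), Trib3 (5.41 RPKM) and Atf3 (4.56 RPKM) formed a middle range, in which Sesn2 and Asns lay closest together. The lowest were Chac1 (1.06 RPKM), Ecel1 (0.405 RPKM) and Sox11 (0.243 RPKM). These last 3 genes had 21 to 84 counts per library, which leaves wide intervals on any difference.

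**Figure D1:**
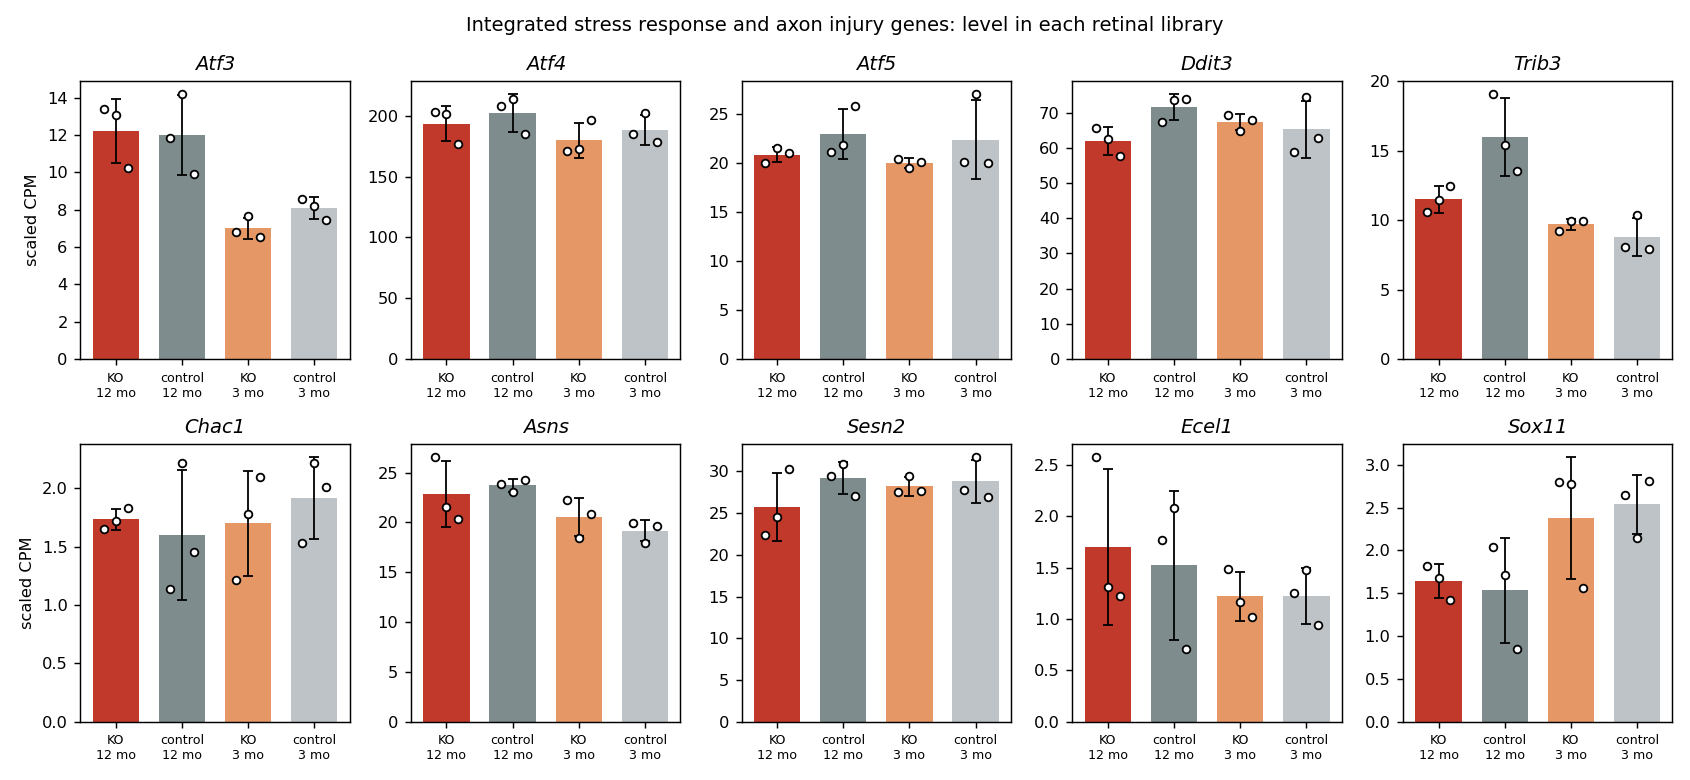
Level of each of the 10 genes in every library (scaled CPM, linear axis from 0), by group. Bars are means, error bars SD (n = 3) and circles single libraries. Trib3 is highest in the 3 libraries of 12-month control, Atf3 is higher in both 12-month groups than in both 3-month groups, and the KO and control circles of Chac1, Ecel1 and Sox11 overlap at both ages.

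The first question was whether KO retina showed raised stress and axon injury genes at 12 months. None of the 10 genes passed an adjusted p of 0.05 over all genes (edgeR quasi-likelihood test, Benjamini-Hochberg), against a background of 0.212% of all genes tested. DESeq2 and limma-voom called none either. At an unadjusted p of 0.05, 2 of the 10 passed, against 8.7% of all genes. The median log2 fold change of the 10 was -0.06, against 0.00 over all genes tested, with 4 above and 6 below 0. A raised level of these genes in KO retina was not detectable here. The limits were the 3 libraries a group and, for Chac1, Ecel1 and Sox11, low counts.

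The 3 axon injury genes did not pass between the genotypes at 12 months. For Sox11 and Ecel1 the intervals were too wide to tell a change from none. Atf3, a stress-induced transcription factor, had 13.4, 13.1 and 10.3 CPM in KO retina, against 11.9, 14.2 and 9.92 CPM in control retina. The ranges overlapped and the fold was 1.02 (95% interval 0.829 to 1.26; edgeR adjusted p = 0.97). In bulk RNA of whole retina, fewer cells of a type and less RNA per cell cannot be told apart, and a rise in ganglion cells alone is diluted by all other cells.

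Sox11, a neuronal transcription factor that promotes axon growth in mice, had 1.82, 1.68 and 1.43 CPM in KO retina, against 2.04, 1.72 and 0.844 CPM in control retina. All 3 KO values lay within the control range, with a fold of 1.07 (95% interval 0.683 to 1.68; edgeR adjusted p = 0.95). Ecel1, a membrane metalloprotease induced by nerve injury in rodents, had 2.58, 1.31 and 1.22 CPM in KO retina, against 1.77, 2.09 and 0.709 CPM in control retina. Its highest value was that of KO replicate 1, and the ranges overlapped. The fold was 1.12 (95% interval 0.658 to 1.91; edgeR adjusted p = 0.93). Without KO replicate 1 the log2 fold change of Ecel1 was -0.26.

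Among the regulators of the stress response, Trib3 and Ddit3 were the only 2 whose KO values all lay below the control values at 12 months. This held for 2 of the 10 genes, against 16.6% of all genes with 3 values of one group all above or all below those of the other. Trib3, a pseudokinase that is induced by ATF4 and CHOP and restrains them, had 10.6, 11.4 and 12.5 CPM in KO retina, against 19.1, 15.4 and 13.5 CPM in control retina. Its log2 fold change was -0.48 ± 0.14 (SE), a fold of 0.718 (95% interval 0.587 to 0.879), and it did not pass (unadjusted p = 0.0027, edgeR adjusted p = 0.24; adjusted p from 0.10 to 0.69 over the 16 alternatives). Control replicate 1 had the highest level, and without it the log2 fold change was -0.33. For Trib3 the exact permutation p, two-sided, was 0.1, the smallest possible with 3 against 3 libraries.

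Ddit3, which encodes the death-promoting factor CHOP, had 65.6, 62.6 and 57.8 CPM in KO retina, against 67.3, 73.6 and 73.8 CPM in control retina. The highest KO value was thus close to the lowest control value. Its log2 fold change was -0.21 ± 0.09 (SE), with edgeR adjusted p = 0.51. Ddit3 overlaps Mbd6 and Mars1 in the RefSeq annotation, and Mbd6 had 10961 to 13064 counts per library. Whether counting used the strand was not stated in the labels, so the counts of Ddit3 are uncertain.

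Atf4, the central transcription factor of the pathway, had 203, 201 and 177 CPM in KO retina, against 208, 214 and 185 CPM in control retina at 12 months. The ranges overlapped, and the fold was 0.957 (95% interval 0.85 to 1.08; edgeR adjusted p = 0.85). Atf5, its relative, stood at 20.8 ± 0.768 CPM in KO and 22.9 ± 2.55 CPM in control retina (SD, n = 3 each; edgeR adjusted p = 0.77). The Atf5 locus overlaps Nup62, with 951 to 1209 counts per library, and that of Ecel1 overlaps 2 non-coding RNA genes, so both are uncertain in the same way.

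The target genes of the pathway did not pass at 12 months. Sesn2, a sestrin that restrains mTORC1 under stress, had 22.4, 24.6 and 30.3 CPM in KO retina, against 29.5, 30.9 and 27.1 CPM in control retina. KO replicate 3 lay inside the control range and the other 2 below it (edgeR adjusted p = 0.66). Asns, which makes asparagine, had 26.6, 21.6 and 20.3 CPM in KO retina, against 23.8, 23.0 and 24.2 CPM in control retina. The KO values lay on both sides of the control values (fold 0.963, 95% interval 0.822 to 1.13; edgeR adjusted p = 0.92). Chac1, which breaks down glutathione, had 50, 51 and 54 counts in KO libraries, against 34, 66 and 43 counts in control libraries. Its fold was 1.08 (95% interval 0.71 to 1.65; edgeR adjusted p = 0.93), so a smaller change was not detectable at this depth.

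None of the 10 genes passed in the authors' deposited table of 12-month results, whose log2 fold changes were taken as shrunken. In the authors' deposited table Trib3 had a log2 fold change of -0.31 (adjusted p = 0.14, DESeq2) and Ddit3 of -0.17 (adjusted p = 0.48, DESeq2). In the authors' deposited table the other 8 had adjusted p of 0.79 or more (DESeq2), with Atf3 at 0.02 and Sox11 at 0.02 on the log2 scale.

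Markers of ganglion cells were set beside these values. Their summed level was 1447 to 1513 CPM in 12-month KO libraries, against 1526 to 1550 CPM in 12-month control libraries, with all 23 genes detected. Stmn2, a microtubule regulator, was the only ganglion cell marker called by edgeR, higher in KO retina at 12 months (log2 fold change 0.69, adjusted p = 0.00052) and at 3 months (0.63, adjusted p = 0.00073). The sum was also taken without Stmn2, because earlier results of these data had it raised together with neighbouring genes on its chromosome. Whether the rise of Stmn2 came from ganglion cells was not tested. Without Stmn2 the sum was 1359 to 1410 CPM in KO and 1462 to 1492 CPM in control libraries. The KO libraries were lower in each case. At 3 months the ganglion cell sums overlapped, at 1537 to 1564 CPM in KO and 1523 to 1555 CPM in control libraries. Of the other marker lists, 4 had 12-month sums without overlap, with all their genes detected. Bipolar cell markers (1583 to 1738 CPM in KO against 1829 to 1900 CPM in control) and amacrine cell markers (1515 to 1533 CPM in KO against 1548 to 1605 CPM in control) were lower in KO libraries. Horizontal cell markers (76.6 to 79.1 CPM in KO against 63.7 to 71.9 CPM in control) and astrocyte markers (46.7 to 49.6 CPM in KO against 39.9 to 45.4 CPM in control) were higher. By edgeR none of the genes in these 4 lists was called at 12 months. Among all single genes, 16.6% had values without overlap in that comparison. The part of these marker levels in the values above was not tested.

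**Figure D2:**
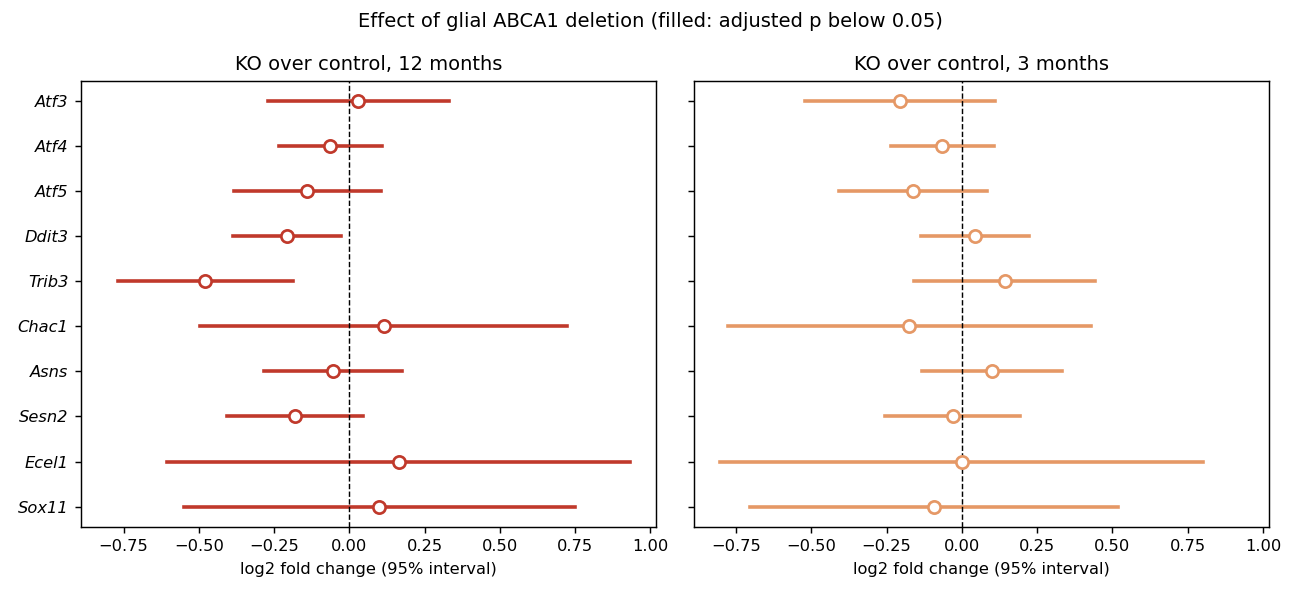
Log2 fold change of KO over control for each of the 10 genes at 12 months (left) and 3 months (right), with 95% intervals from the edgeR fit. Filled circles would mark an adjusted p below 0.05, and none is filled. At 12 months the intervals of Trib3 and Ddit3 lie below 0.

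At 3 months the same question was put to younger retina. None of the 10 genes passed (lowest edgeR adjusted p = 0.71), against a background of 0.225% of all genes, and 0 had an unadjusted p below 0.05, against 7.5% of all genes. DESeq2 and limma-voom called none. The median log2 fold change of the 10 was -0.05. The KO and control ranges of all 10 genes overlapped, where 15.6% of all genes had ranges that did not. The 3-month control libraries held RNA of other tissues. Skeletal muscle markers summed to 8.40 to 13.03 CPM in KO and 87.7 to 103 CPM in control libraries, with 10 of 10 called lower in KO, and lens markers to 7.95 to 8.94 CPM in KO and 35.9 to 3884 CPM in control libraries. Their part in the 3-month values was not tested. With library sizes that left out lens, muscle and blood genes, none of the 10 genes passed.

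Atf3 had 6.82, 7.65 and 6.56 CPM in 3-month KO retina, against 8.60, 8.21 and 7.43 CPM in 3-month control retina. Only KO replicate 2 reached the control range (fold 0.867, 95% interval 0.697 to 1.08; edgeR adjusted p = 0.71). Trib3 had 9.25, 9.91 and 9.94 CPM in KO retina, against 8.09, 10.4 and 7.93 CPM in control retina. Its highest value was that of control replicate 2, the library richest in lens RNA, and its fold was 1.10 (95% interval 0.896 to 1.36; edgeR adjusted p = 0.78). Without that library the log2 fold change of Trib3 was 0.28. Atf5, at 20.4, 19.5 and 20.1 CPM in KO retina against 20.1, 27.0 and 20.0 CPM in control retina, also owed its highest value to that library. Without it the log2 fold change of Atf5 was -0.01, against -0.16 with it.

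Sox11 had 2.80, 2.78 and 1.56 CPM in 3-month KO retina, against 2.65, 2.15 and 2.81 CPM in 3-month control retina. The ranges overlapped (fold 0.938, 95% interval 0.613 to 1.43; edgeR adjusted p = 0.94). Ecel1 averaged 1.22 ± 0.240 CPM in KO and 1.22 ± 0.270 CPM in control retina (SD, n = 3 each). Ddit3 averaged 67.3 ± 2.35 CPM in KO and 65.3 ± 8.06 CPM in control retina (SD, n = 3 each), with edgeR adjusted p = 0.89. Atf4, Chac1, Asns and Sesn2 had edgeR adjusted p from 0.80 to 0.94, and their log2 fold changes ran from -0.17 for Chac1 to 0.10 for Asns.

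The difference of the KO effects between 12 and 3 months was tested in the same model, and none of the 10 genes passed, against 0.127% of all genes. DESeq2 and limma-voom called none. Trib3 had the lowest edgeR adjusted p, 0.85 (unadjusted p = 0.0058, the only 1 of the 10 below 0.05), with a difference of -0.62 ± 0.20 (SE) on the log2 scale. Its adjusted p was 0.13 or more in each of the 21 alternatives.

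The effect of age was then read within each genotype. Atf3 rose in both genotypes and Trib3 rose in control retina, while the other 8 genes did not pass in either. In KO retina 1 of the 10 genes passed, against a background of 2.37% of all genes called. In control retina 2 of the 10 passed, against 2.11% of all genes. All 3 calls were rises, where 1.54% of all genes were called higher with age in KO and 1.4% in control retina. The median log2 fold change of the 10 was 0.08 in KO and 0.12 in control retina, against 0.00 over all genes in each.

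Atf3 had 13.4, 13.1 and 10.3 CPM in 12-month KO retina, against 6.82, 7.65 and 6.56 CPM in 3-month KO retina. The lowest 12-month value lay above the highest 3-month value, a rise of 1.75-fold (95% interval 1.41 to 2.17; edgeR adjusted p = 0.0038). This call held in all 16 alternatives, with log2 fold changes from 0.74 to 0.92. In control retina Atf3 had 11.9, 14.2 and 9.92 CPM at 12 months, against 8.60, 8.21 and 7.43 CPM at 3 months. The ranges again did not overlap, a rise of 1.48-fold (95% interval 1.20 to 1.84; edgeR adjusted p = 0.048). The control call was lost in 6 of 16 alternatives, among them without 12-month control replicate 1 or 2, without any 1 of the 3 libraries of 3-month control, and with only the 6 control libraries fitted (adjusted p up to 0.27, edgeR). The difference between the 2 rises did not pass (0.24 ± 0.21, SE, on the log2 scale; edgeR adjusted p = 0.999).

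Trib3 had 19.1, 15.4 and 13.5 CPM in 12-month control retina, against 8.09, 10.4 and 7.93 CPM in 3-month control retina. The groups did not overlap, and the rise was 1.82-fold (95% interval 1.48 to 2.23; edgeR adjusted p = 0.0011). The call held in all 16 alternatives, with log2 fold changes from 0.72 to 0.998. In KO retina Trib3 had 10.6, 11.4 and 12.5 CPM at 12 months, against 9.25, 9.91 and 9.94 CPM at 3 months. These values did not overlap either, but the fold of 1.18 (95% interval 0.964 to 1.45) did not pass (edgeR adjusted p = 0.50). The test of this difference between the genotypes is the one given above for the KO effects, which did not pass. The 12-month control libraries enter both the Trib3 rise in control and the KO comparison at 12 months, so the 2 results are not independent.

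Asns and Sox11 were the other genes whose control values did not overlap between the ages. Sox11 had 2.04, 1.72 and 0.844 CPM in 12-month control retina, against 2.65, 2.15 and 2.81 CPM in 3-month control retina, with a log2 fold change of -0.72 ± 0.30 (SE) that did not pass (edgeR adjusted p = 0.30). In KO retina it averaged 1.64 ± 0.198 CPM at 12 months and 2.38 ± 0.712 CPM at 3 months (SD, n = 3 each; edgeR adjusted p = 0.49). Asns had 23.8, 23.0 and 24.2 CPM in 12-month control retina, against 19.9, 17.9 and 19.6 CPM in 3-month control retina (log2 fold change 0.31 ± 0.11, SE; edgeR adjusted p = 0.20). In all, 4 of the 10 genes had control values without overlap between the ages, against 17.5% of all genes, and 2 of 10 in KO retina, against 22.2%.

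The remaining genes did not pass with age in either genotype. Atf4 had a fold of 1.08 (95% interval 0.955 to 1.21) in KO and 1.07 (95% interval 0.954 to 1.21) in control retina. Ddit3 had a fold of 0.921 in KO and 1.10 in control retina, and Sesn2 of 0.912 in KO and 1.01 in control retina. Ecel1 had a fold of 1.39 (95% interval 0.81 to 2.40) in KO and 1.24 (95% interval 0.72 to 2.15) in control retina, intervals too wide to tell a change from none. Chac1 had a fold of 1.02 (95% interval 0.671 to 1.55) in KO and 0.836 (95% interval 0.55 to 1.27) in control retina. Atf5 had a fold of 1.04 in KO and 1.02 in control retina. Microglial marker levels moved with age as Atf3 did. Their summed level over 7 genes was 52.6 to 55.4 CPM in 12-month KO against 42.4 to 43.6 CPM in 3-month KO libraries, and 50.1 to 52.9 CPM in 12-month control against 39.5 to 41.2 CPM in 3-month control libraries. All 7 were detected in each group, and their part in the rise of Atf3 was not tested. Skeletal muscle and lens markers also differed with age in control retina. The muscle markers summed to 7.74 to 9.65 CPM in 12-month control (9 of 10 genes detected) against 87.7 to 103 CPM in 3-month control libraries, and lens markers to 8.27 to 27.1 CPM against 35.9 to 3884 CPM. Bipolar cell markers were higher at 12 months in control retina (1829 to 1900 CPM against 1807 to 1811 CPM at 3 months). Endothelial and mural cell markers were lower there (198.2 to 219.2 CPM against 219.5 to 238.1 CPM at 3 months). The part of these marker levels in the rises of Atf3 and Trib3 was not tested. Without 3-month control replicate 2, the library richest in lens RNA, the log2 rise of Trib3 with age in control retina was 0.998 and that of Atf3 0.58.

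**Figure D3:**
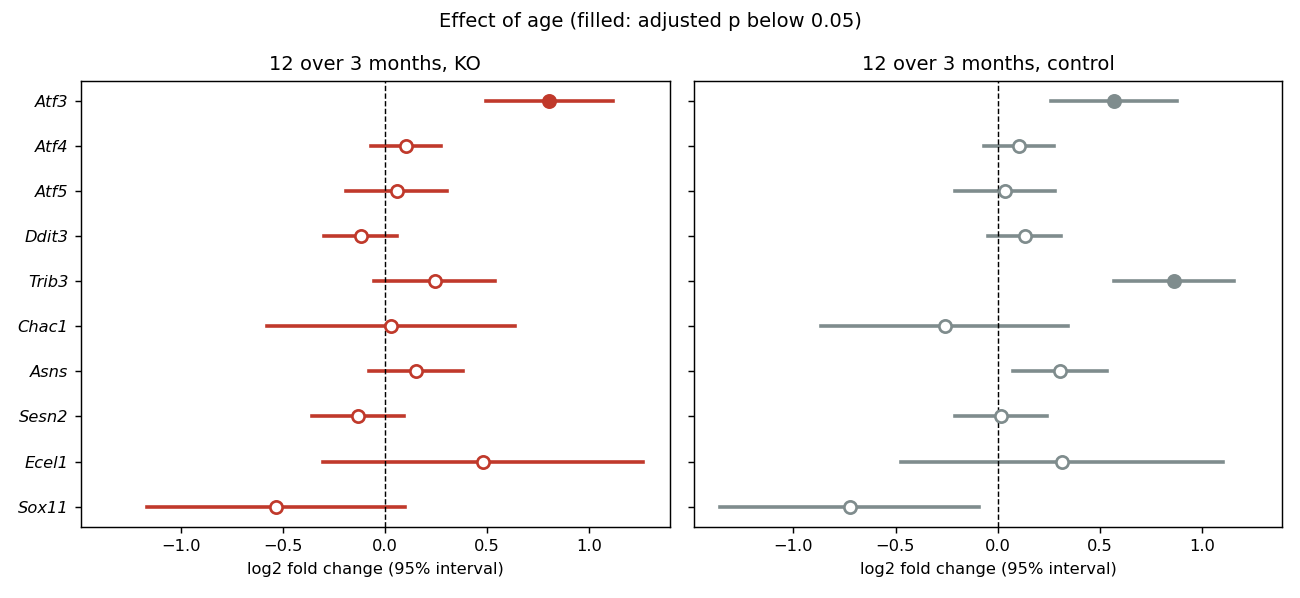
Log2 fold change of 12 over 3 months for each of the 10 genes in KO retina (left) and control retina (right), with 95% intervals from the edgeR fit. Filled circles mark an adjusted p below 0.05: Atf3 in both genotypes and Trib3 in control retina. The interval of Sox11 lies below 0 in control retina and its circle is open.

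Other genes of the same pathways were read from 10 lists, each described by its counts and median. At 12 months edgeR called 2 of the 176 tested genes of these lists between KO and control retina, against 0.212% of all genes, and the median log2 fold change of all genes was 0.00. DESeq2 called 7 of the 176 and limma-voom 8, where they called 128 and 186 of all genes. By edgeR 23 of the 176 had an unadjusted p below 0.05, where 8.7% of all genes did. The only edgeR call in the stress response lists was Ddit4, an mTORC1 inhibitor induced by ATF4 and by other signals, at 279 ± 7.02 CPM in KO and 463 ± 54.9 CPM in control retina (SD, n = 3 each), with a log2 fold change of -0.73 ± 0.10 (SE; edgeR adjusted p = 0.00063), the only call among the 21 tested ATF4 and CHOP target signalling genes (median -0.06). By edgeR none of the 19 sensors and regulators passed (median -0.01; 3 at an unadjusted p below 0.05), and the 2 most abundant, the GCN2 activator Gcn1 (-0.14) and its inhibitor Impact (0.07), had edgeR adjusted p = 0.71 and 0.85. By edgeR none of the 22 amino acid transport and synthesis genes (median -0.05) and none of the 12 tRNA ligases (median 0.05) passed, the ligase gene for alanine, Aars, having a log2 fold change of 0.03 and that for serine, Sars, of -0.01. By edgeR none of the 20 genes of the unfolded protein response of the endoplasmic reticulum passed (median -0.07; 2 at an unadjusted p below 0.05). DESeq2 called none of the sensors, amino acid genes, tRNA ligases and unfolded protein response genes. Limma-voom called 1 sensor or regulator, Ppp1r15a, which encodes an eIF2 phosphatase subunit (log2 fold change -0.41, limma adjusted p = 0.027), and 1 unfolded protein response gene, Xbp1 (-0.35, limma adjusted p = 0.012), both lower in KO retina.

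The lists for axon injury were likewise without a call between KO and control retina at 12 months. None of 20 genes of the DLK pathway and axon degeneration passed (median -0.05), nor did any of 20 regeneration-associated genes (median 0.02), by edgeR, DESeq2 or limma-voom, and 2 genes of each list had an unadjusted p below 0.05. Map3k12, which encodes DLK, averaged 99.9 ± 4.66 CPM in KO and 109 ± 6.80 CPM in control retina (SD, n = 3 each; edgeR adjusted p = 0.64). Jun, the transcription factor that DLK signalling activates, averaged 110 ± 2.18 CPM in KO and 113 ± 5.97 CPM in control retina (SD, n = 3 each; edgeR adjusted p = 0.88). The growth cone protein gene Gap43 averaged 41.1 ± 2.83 CPM in KO and 40.4 ± 2.16 CPM in control retina (SD, n = 3 each; edgeR adjusted p = 0.94). By edgeR none of 15 p53 and sestrin genes (median 0.03; 2 at an unadjusted p below 0.05) or 10 oxidative stress genes (median 0.02; 1 at an unadjusted p below 0.05) passed, the antioxidant enzyme gene Srxn1 having -0.17 (edgeR adjusted p = 0.56) and G6pdx -0.02 (edgeR adjusted p = 0.98). DESeq2 called 1 p53 gene, Cdkn1a, higher in KO retina (log2 fold change 0.73, DESeq2 adjusted p = 0.038), and limma-voom none of either list. Of 18 immediate early genes (median -0.03), edgeR called 1, Ier3, which was lower in KO retina (log2 fold change -0.46 ± 0.09, SE; edgeR adjusted p = 0.021). The Ier3 call was lost in 5 of 16 alternatives (edgeR adjusted p up to 0.17). Among these were the fits without KO replicate 2 or 3 or control replicate 1 or 2. DESeq2 and limma-voom called 5 immediate early genes each, all lower, where they called 128 and 186 of all genes in either direction. By edgeR 7 of the 18 had an unadjusted p below 0.05, where 8.7% of all genes did. At 3 months none of the 176 genes passed between KO and control retina by edgeR, DESeq2 or limma-voom. The unfolded protein response list had a median of 0.12 there, with 17 genes above and 3 below 0, against 0.00 over all genes. The medians of the other lists ran from -0.07 to 0.06. By edgeR 14 had an unadjusted p below 0.05, where 7.5% of all genes did.

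With age several immediate early genes rose, from the group of rapidly induced genes to which Atf3 is often assigned. Of 18, 5 rose and 0 fell in KO retina (median 0.25), where 1.54% of all genes were called higher. In control retina 8 rose and 1 fell (median 0.45), where 1.4% of all genes were called higher. Egr1 averaged 296 ± 11.1 CPM in 12-month KO and 155 ± 5.01 CPM in 3-month KO retina (SD, n = 3 each; log2 fold change 0.93, edgeR adjusted p = 0.00041). In control retina Egr1 averaged 278 ± 61.2 CPM at 12 months and 147 ± 13.04 CPM at 3 months (SD, n = 3 each; log2 fold change 0.91, edgeR adjusted p = 0.00040). Junb rose by 0.69 in KO and 0.76 in control retina on the log2 scale, and Nr4a1 by 0.61 in KO and 0.94 in control retina. Fos rose by 0.36 in KO retina (edgeR adjusted p = 0.015) and by 0.43 in control retina (edgeR adjusted p = 0.0036). Ier2 rose by 0.51 in KO retina (edgeR adjusted p = 0.028) and by 0.72 in control retina on the log2 scale. With each library left out in turn, 3 to 4 of the 18 rose in KO and 6 to 8 in control retina. The Fos call in KO retina was lost without KO replicate 3 at 12 months and without any 1 of the 3 KO libraries at 3 months.

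Of the 20 genes of the unfolded protein response list, 5 fell with age in KO retina and 0 rose (median -0.31), where 0.832% of all genes were called lower. The 5 were the disulfide isomerase gene Pdia6 (log2 fold change -0.50, edgeR adjusted p = 0.0034), Creld2 (-0.39, edgeR adjusted p = 0.011), the transcription factor gene Xbp1 (-0.43, edgeR adjusted p = 0.015), the chaperone gene Dnajb11 (-0.30, edgeR adjusted p = 0.033) and the chaperone gene Hyou1 (-0.35, edgeR adjusted p = 0.034). Pdia6 averaged 97.5 ± 10.8 CPM in 12-month KO and 137 ± 3.01 CPM in 3-month KO retina (SD, n = 3 each). In control retina 1 of 20 fell, Creld2 (log2 fold change -0.33, edgeR adjusted p = 0.038), the median was -0.10, and 0.71% of all genes were called lower. In KO against control retina the list median was 0.12 at 3 months and -0.07 at 12 months. None of the 20 passed the test of the difference between the genotypes by edgeR, DESeq2 or limma-voom. That difference was below 0 for 18 and above 0 for 2 (median -0.18, against -0.01 over all genes). By edgeR 1 of the 20 had an unadjusted p below 0.05, where 4.33% of all genes did. Markers of several cell types moved with age in KO retina too. Ganglion cell markers (1447 to 1513 CPM at 12 months against 1537 to 1564 CPM at 3 months), bipolar cell markers (1583 to 1738 CPM at 12 months against 1769 to 1817 CPM at 3 months), cone markers (989 to 1075 CPM at 12 months against 1089 to 1121 CPM at 3 months) and horizontal cell markers (76.6 to 79.1 CPM at 12 months against 79.7 to 84.5 CPM at 3 months) were lower. Muller glia markers were higher, at 5023 to 5170 CPM at 12 months against 4761 to 4831 CPM at 3 months. All genes of these lists were detected, and their part in the fall was not tested. The count rests on few libraries. With each library left out in turn it was 1 to 6 in KO retina, at 1 without 12-month KO replicate 2 or without 3-month KO replicate 2 or 3, at 2 without 12-month KO replicate 3 and at 3 without 3-month KO replicate 1. DESeq2 called 8 lower and limma-voom 13 in KO retina, where they called 592 and 1319 of all genes in either direction. By edgeR 13 of the 20 had an unadjusted p below 0.05 there, where 13.3% of all genes did. For control retina DESeq2 called 2 lower and limma-voom 4, where they called 574 and 773 of all genes. By edgeR 5 of the 20 had an unadjusted p below 0.05 there, where 12.5% of all genes did. In control retina the Creld2 call was lost without any 1 of the 3 libraries at 12 months, without replicate 2 or 3 at 3 months, and with only the 6 control libraries fitted.

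Other pathway genes that changed with age did so in different lists. Shmt2, a mitochondrial enzyme of serine and one-carbon metabolism, was lower at 12 months in both genotypes, at 46.8 ± 1.95 CPM against 68.7 ± 4.92 CPM at 3 months in KO retina and 49.4 ± 0.926 CPM against 74.4 ± 9.62 CPM at 3 months in control retina (SD, n = 3 each; edgeR adjusted p = 0.00084 and 0.00039). Bcl2l11, which encodes the death-promoting protein BIM, rose in both, by 0.57 in KO and 0.46 in control retina on the log2 scale (edgeR adjusted p = 0.0019 and 0.014). The Bcl2l11 call in control retina was lost without 12-month control replicate 1 or 2, without 3-month control replicate 3 and with only the 6 control libraries fitted. Ddit4 rose in control retina by 0.49 on the log2 scale (edgeR adjusted p = 0.0061), a call lost without 12-month control replicate 2 and with only the 6 control libraries fitted. Sox4, a relative of Sox11, was lower at 12 months in KO retina (log2 fold change -0.47, edgeR adjusted p = 0.0069), except without 3-month KO replicate 3. The stress-induced gene Gadd45b rose in KO retina (0.70, edgeR adjusted p = 0.0095), except without 12-month or 3-month KO replicate 1. The cell cycle inhibitor gene Cdkn1a was lower at 12 months in control retina (-1.01, edgeR adjusted p = 0.0027). By limma-voom Cdkn1a was also lower in KO retina (-0.58, limma adjusted p = 0.013), and Sox4 in control retina (-0.30, limma adjusted p = 0.030). In the test of the difference between the genotypes, edgeR and DESeq2 called none of the 176 genes of the lists. Limma-voom called 2 there, Ddit4 and Ier3, where it called 50 of all genes. Csrp3, listed for its induction in injured axons, rose in both genotypes, by 2.57 in KO and 2.80 in control retina on the log2 scale.

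**Figure D4:**
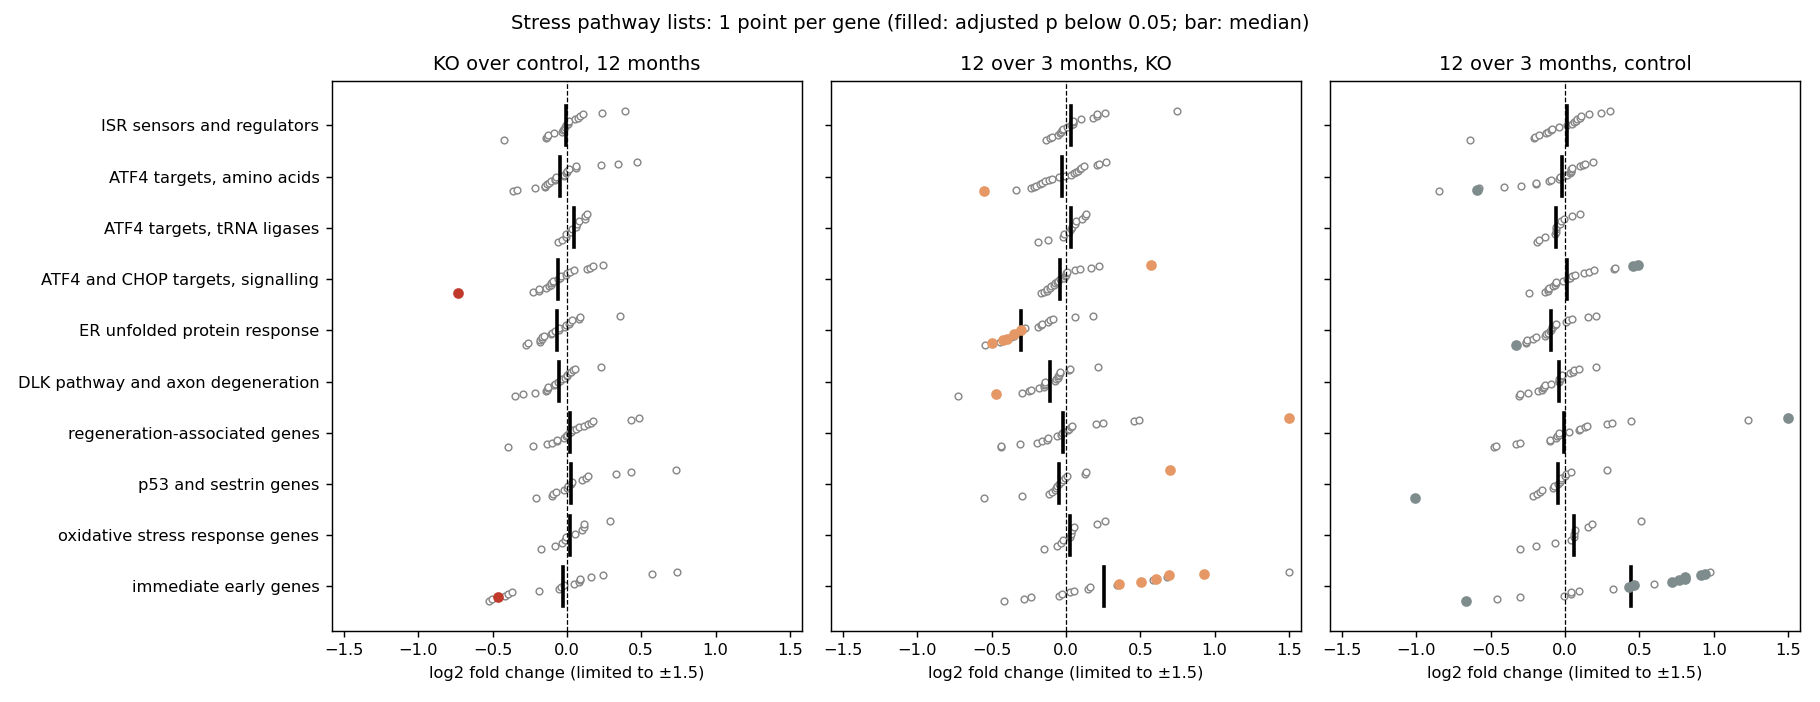
Log2 fold change of every tested gene in the 10 pathway lists for KO over control at 12 months (left), 12 over 3 months in KO (middle) and 12 over 3 months in control (right). Values beyond 1.5 are drawn at 1.5, filled points have an adjusted p below 0.05 and black bars are list medians. The left panel has 2 filled points, Ddit4 and Ier3, and the immediate early genes are shifted to the right with age in both genotypes.

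The genes whose level ran most like each member over the 12 libraries were looked up among genes with a mean of at least 1 CPM. With so many genes and only 12 libraries, high values are found for all 10, and they are a description that depends on library differences shared by many genes. Closest to Trib3 was Fam110a (likeness 0.94, the Pearson coefficient of log2 CPM), and closest to Atf3 was the junction protein gene F11r (0.96). Closest to Atf4 was Fbxo27 (0.92), and closest to Ddit3 was Rnf113a1 (0.88). Closest to Atf5 was Zfp423 (0.94), to Ecel1 Ubac2 (0.92), to Asns Atp5md (0.91), to Sesn2 Afg3l2 (0.91), to Sox11 Insig1 (0.89) and to Chac1 the glutaminase gene Gls2 (0.88). The next closest were Gsc2 for Atf3, Frmpd1 for Trib3, Ess2 for Atf4, Slco4a1 for Ddit3, Wbp1l for Atf5, Pou3f3 for Ecel1, Meis2 for Asns, Dchs1 for Sesn2, Carnmt1 for Sox11 and Grpel1 for Chac1, with likeness from 0.81 to 0.94. No member was among the 2 closest genes of another.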

How the data were processed

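Retinal RNA of 12 libraries was sequenced as stranded poly(A) libraries, per the labels' protocols. Per the submitters' processing notes, the authors aligned reads with HISAT2 2.1.0 to GRCm38 and counted them with featureCounts 1.6.4. Raw counts by Entrez gene ID were deposited for each library. The strand setting and the handling of read pairs were not stated in the labels. Of low counts (1 to 20), 60.7% to 70.2% were even, so read pairs may have been counted as 2. A DESeq2 table of the 12-month libraries, deposited with no header, was read as mean signal (normalized counts), log2 fold change with its error, a Wald score, and p-values before and after adjustment.

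Counts were analysed with edgeR 4.0.16 in R 4.3.3. Genes were kept with filterByExpr, scaled by TMM and fitted with robust glmQLFit on all 12 libraries with 1 coefficient per group. Benjamini-Hochberg adjustment ran over all 16475 genes. Intervals of 95% come from the fit and are not adjusted for the number of genes. RPKM used GENCODE exon lengths. Symbols, positions and promoters are from RefSeq, GRCm38.p6, and 25275 IDs were named. The method was also run on simulated counts with the same dispersion for all genes. These held no library that stood apart, so they do not show how the method performs with such libraries. Alternatives were RLE and upper quartile factors, DESeq2 1.42.0, limma 3.58.1 (voom), 2 other filters, fits to the 6 libraries of each comparison, a block for replicate number, library sizes without genes of other tissues, each library left out and halved counts, the last added after the data were seen.

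The members and lists were chosen with earlier results of these data known. Named were all members, for each list and comparison up to 4 called genes with the smallest adjusted p, and for lists without any call the 2 of highest mean level. Map3k12, Jun, Gap43, Hyou1, Stmn2 and Ppp1r15a were named after their values were seen.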

Additional observations from a re-analysis of the deposited data

How the results depend on the processing

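Over 22 alternatives the calls of the 10 genes in the KO comparisons and in the rise of Atf3 in KO and of Trib3 in control retina were unchanged, and the rise of Atf3 in control retina was lost in 6 of 16, leaving 1 of the 10 called there when only the 6 control libraries were fitted. The count of all genes called depended on the tool. DESeq2 and limma-voom called 128 and 186 genes for the KO effect at 12 months, 63 and 79 at 3 months, 44 and 50 for the difference, 592 and 1319 for age in KO and 574 and 773 for age in control, against 35, 37, 21, 390 and 347 with edgeR. Without a filter the count at 12 months was 64, and the 6 control libraries alone gave 198 with age. With each library left out in turn the counts were 13 to 52, 21 to 41, 14 to 29, 187 to 367 and 201 to 440 in the same order, and for the 10 genes 0 to 0 in each KO comparison and in the difference, 1 to 1 for age in KO and 1 to 2 for age in control.

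Signs turned only for uncalled values, and the cause was not tested. With each library left out, log2 fold changes ran at 12 months from Atf3 -0.089 to 0.17, Chac1 -0.083 to 0.42, Asns -0.18 to 0.022, Ecel1 -0.26 to 0.46, Sox11 -0.19 to 0.36, Aars -0.024 to 0.092, Sars -0.031 to 0.026, G6pdx -0.036 to 0.0097 and Gap43 -0.031 to 0.058; at 3 months from Ddit3 -0.027 to 0.15, Chac1 -0.36 to 0.017, Sesn2 -0.078 to 0.044, Ecel1 -0.17 to 0.16 and Sox11 -0.23 to 0.13; in the difference from Atf4 -0.059 to 0.078, Atf5 -0.13 to 0.12, Ecel1 -0.26 to 0.46 and Sox11 -0.099 to 0.45; with age in KO from Chac1 -0.16 to 0.21 and in control from Atf5 -0.061 to 0.19 and Sesn2 -0.030 to 0.091. With limma-voom the sign turned for Gap43 (-0.024) and Sars (0.00048) at 12 months, Sesn2 (0.030) and Ecel1 (0.18) at 3 months, and Atf4 (-0.024), Atf5 (-0.10) and Ecel1 (-0.094) in the difference. Halved counts turned Ecel1 at 3 months (0.0056), and upper quartile factors Sars at 12 months (0.00014).

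Replicate numbers did not pair the libraries (same-numbered deviations correlated from -0.08 to 0.14). A block for replicate number changed no call of the 10 genes. It gave 40 genes called at 12 months, 38 at 3 months, 22 for the difference, 368 for age in KO and 317 for age in control, turned the sign of Atf4 in the difference (-0.0017) and, among the genes named, ended only the call of Dnajb11 with age in KO.

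Precision was limited by 3 libraries a group and, for Chac1, Ecel1 and Sox11, by 21 to 84 counts per library. Intervals of the fit include the spread between libraries, and read pairs that may have been counted as 2 lower the information in these counts.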
